A study of Mus musculus with 6 samples.

Results

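Mitochondrial ribosomal protein genes were described in sorted dendritic epidermal T cells (DETC), the resident γδ T cells of mouse epidermis. They are the genes whose symbol in the deposited gene annotation begins with Mrpl or Mrps and a number, 76 of the 20300 genes measured. By symbol 48 belong to the large subunit (Mrpl) and 28 to the small subunit (Mrps). RNA was measured on Clariom S Mouse arrays, 3 for Ahr-ko mice, homozygous for a knockout allele of the aryl hydrocarbon receptor (AHR, encoded by Ahr), and 3 for Ahr-het littermates, heterozygous for it. Both groups were thus carriers of the allele from the B6.129-Ahrtm1Bra/J strain, and no wild-type array was analysed here. The mice were females and males aged 2 weeks, and each array held RNA pooled from 2 to 3 of them. Of the live epidermal cells, DETC were 2 to 4% in Ahr-ko and 10 to 15% in Ahr-het mice. They were sorted by the γδ TCR and the Vγ3 chain to a purity of 90 to 98%. The comparison asks what the loss of AHR changes in DETC.

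The mitochondrial ribosome (mitoribosome) translates the few proteins encoded by mitochondrial DNA, which are core subunits of the respiratory chain and of ATP synthase. All of its proteins are made from nuclear genes and imported. Many descend from bacterial ribosomal proteins, and others were added during the evolution of mitochondria. T cells build new mitochondria and raise mitochondrial translation when they are activated.

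All values are log2 expression after RMA, so that a difference of 1 is a doubling. Probes differ in brightness, so levels are compared between arrays and not between genes. A background limit was taken per array from 1391 genes of olfactory and vomeronasal receptors, which stand for genes silent in T cells, as their 95th percentile. It lay at 7.55 to 7.63 for Ahr-ko and at 7.46 to 7.56 for Ahr-het. All 10 markers of DETC and T cells lay above it on every array. Ahr itself had a log2 fold change of -0.44 (adjusted p = 0.177 from limma), and whether its probes lie in the deleted part is not given, so it does not check the labels. Cyp1b1, a classic AHR target, was below the limit on all 6 arrays. Ahrr, which encodes the AHR repressor and is induced by AHR (chosen after its value was seen), was lower in Ahr-ko, with a log2 fold change of -1.45 (adjusted p = 0.000893 by limma).

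The promoters of 67 of the 76 genes are in the RefSeq promoter table of GRCm38.p6, and the 250 bases before the gene start were read in 73 windows. Shown here are the genes with the highest log2 fold change in each subunit, Mrpl20 and Mrps25, and the gene with the lowest of all, Mrpl9, each as the 120 bases before its start. Capitals mark the E-box CACGTG, which MYC can bind, or GCATGCG, the core of the motif of NRF1, a factor known for driving nuclear genes of mitochondria.
Mrpl20, chr4:155802758-155802877, + strand: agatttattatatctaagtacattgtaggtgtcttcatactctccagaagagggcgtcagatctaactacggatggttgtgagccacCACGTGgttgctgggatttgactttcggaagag
Mrps25, chr6:92184024-92184143, - strand: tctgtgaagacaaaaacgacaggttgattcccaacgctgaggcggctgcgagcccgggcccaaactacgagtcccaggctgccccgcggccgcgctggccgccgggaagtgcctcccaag
Mrpl9, chr3:94443216-94443335, + strand: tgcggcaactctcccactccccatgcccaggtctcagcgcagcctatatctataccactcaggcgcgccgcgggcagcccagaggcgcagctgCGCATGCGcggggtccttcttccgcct
These 3 genes had no motif in common among those searched, in the bases shown or in the 250 bases read. The window of Mrpl9 also holds GCGTG, the core of the AHR binding site, which is not in the bases shown. Mrpl15, the only gene of the 76 called below, has no promoter in the table. In Mrpl9 the capitals cover a match on each strand.

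On either strand, GCATGCG was found in 8 of 73 windows of these genes (11.0%) and in 3.02% of all 32851 windows of the table. CCGGAAG, the core bound by ETS factors such as GABP, was found in 17 windows (23.3%, against 6.91% of all windows), CACGTG in 7 (9.59%, against 6.02%) and GCGTG, the core of the AHR binding site, in 35 (47.9%, against 28.2%). GCATGCG and GCGTG can share bases, and 3 genes have several windows, which overlap for Mrpl2 and Mrps16. The windows of the table are those of 27025 genes, measured or not, and were not matched for base composition. All motifs searched were more frequent in the mitoribosome windows. These are counts of letters and were not tested, so no enrichment of a binding site is read from them.

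Genes of the mitoribosome often lie head to head with another gene. Of the 67 genes, 26 (38.8%) had a neighbour transcribed away from them on the other strand, with starts at most 1000 bases apart, against 13.8% of 16019 measured genes in the table. Mrps11 and Mrpl46, one from each subunit, start 42 bases apart, and the 41 bases between the starts are shown because they lie upstream of both.
Mrps11 and Mrpl46, chr7:78783090-78783130, + strand: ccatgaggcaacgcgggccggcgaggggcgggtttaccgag
None of the motifs searched is in these letters. Between the genotypes Mrps11 differed by 0.08 on the log2 scale (standard error, SE, 0.11) and Mrpl46 by 0.31 (SE 0.18), and neither passed the test. Other neighbours, chosen here for roles in mitochondria after their values were seen, were Twnk next to Mrpl43 (the helicase of mitochondrial DNA, log2 fold change 0.15), Sars2 next to Mrps12 (a mitochondrial tRNA synthetase, -0.03) and Ndufb5 next to Mrpl47 (a subunit of complex I, 0.18). Of 23 neighbours that were measured, 0 were called by limma at an adjusted p under 0.05, against 3.14% of all genes. At an unadjusted p under 0.05 there was 1 of 23, against 13.2% of all genes.

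In DETC of Ahr-ko mice, 1 gene of the mitoribosome was changed and the other 75 did not pass the test. Mrpl15, a large subunit protein with a bacterial counterpart, was 1.54-fold higher in Ahr-ko. Of the 76 genes 1 was higher and 0 were lower at an adjusted p under 0.05 from limma, which is 1.32% against 3.14% of all genes (1.58% higher and 1.57% lower). The log2 fold change was above 0 for 56 of 76 (73.7%), against 50.8% of all genes. Its median was 0.15, with quartiles of -0.0019 and 0.27, against 0.0038 over all genes. This median was 0.07 without Ahr-ko 1, and 0.03 with 40 of 76 genes above 0 when the level of keratinocyte markers was a covariate. At an unadjusted p under 0.05 there were 8 higher and 1 lower, or 11.8% against 13.2% of all genes (6.69% higher and 6.54% lower). Fewer cells of a type and less RNA per cell cannot be told apart in sorted pools.

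**Figure D1:**
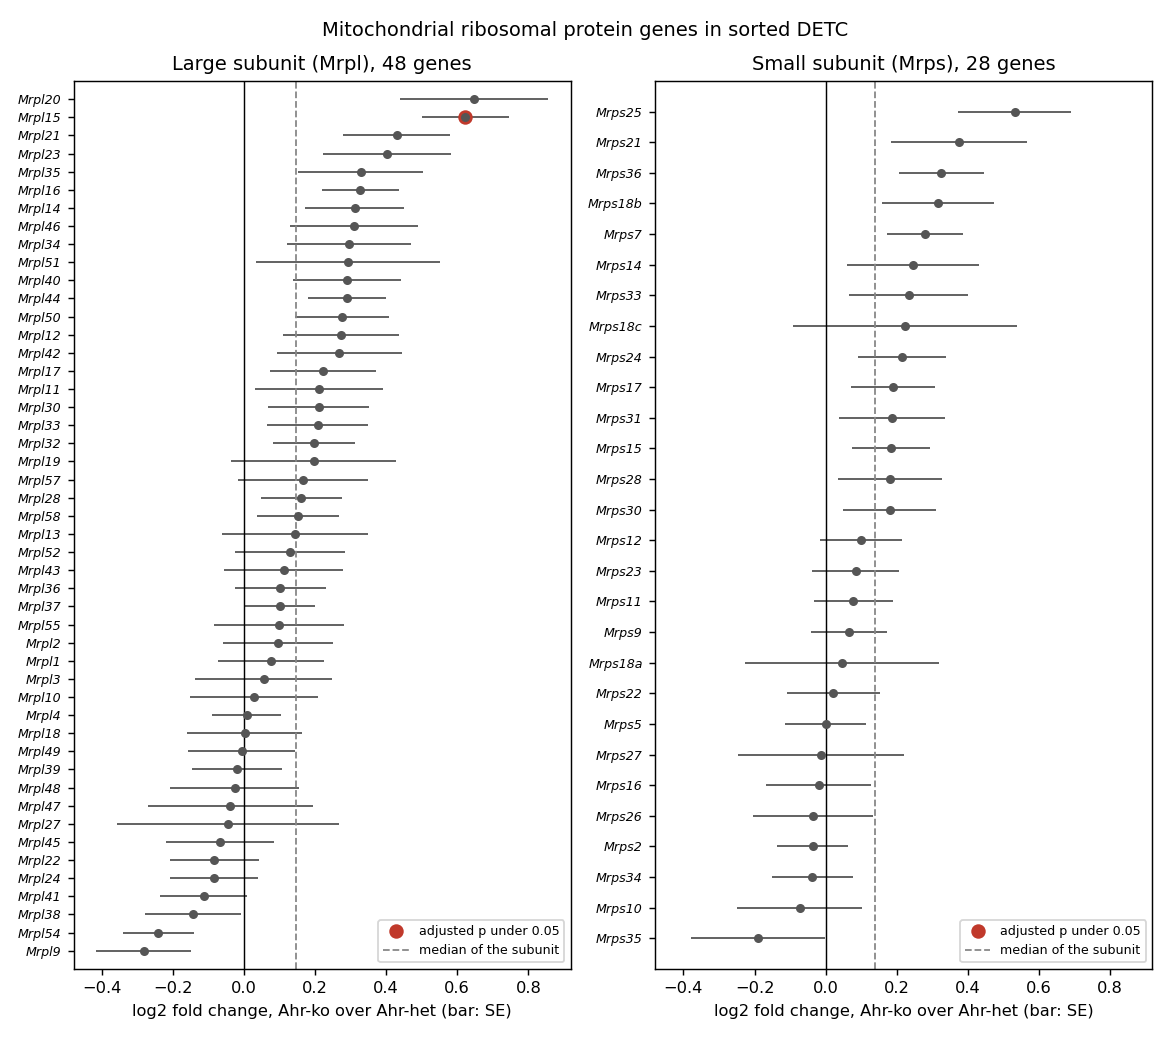
Log2 ratio of Ahr-ko to Ahr-het (x axis, bars give the standard error) for the 48 large and 28 small subunit genes (y axis), with the median of each subunit as a dashed line. Mrpl15 is the only gene marked as past the test, and the medians are 0.15 and 0.14.

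Mrpl15 (gene ID 27395, chromosome 1) had levels of 8.49, 8.26 and 8.27 on the Ahr-ko arrays, against 7.83, 7.54 and 7.79 on the Ahr-het arrays. The groups did not overlap, and 2 of 3 Ahr-het arrays passed the background limit. Between the genotypes it differed by 0.62 on the log2 scale (SE 0.12, adjusted p = 0.0360 from limma). The call ended in 5 of the 6 fits that leave out 1 array (adjusted p 0.0758 without Ahr-ko 1, 0.0786 without Ahr-ko 2, 0.118 without Ahr-ko 3, 0.152 without Ahr-het 2 and 0.107 without Ahr-het 3). It also ended when all probe sets, controls included, were tested together (adjusted p = 0.0711), while the fit that blocks on the replicate number gave an adjusted p of 0.00695.

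Mrpl20 (gene ID 66448, chromosome 4), whose bacterial counterpart binds rRNA early in the assembly of the large subunit, had levels of 10.47, 9.81 and 10.32 in Ahr-ko, against 9.89, 9.48 and 9.30 in Ahr-het. The groups overlapped, since Ahr-ko 2 lay below Ahr-het 1. Its log2 fold change of 0.65 (SE 0.21) was the highest of all 76, with an adjusted p of 0.202 (0.0235 with the block). Mrps25 (gene ID 64658, chromosome 6), a small subunit protein without a bacterial counterpart, had levels of 8.52, 8.46 and 8.74 in Ahr-ko, against 8.21, 7.72 and 8.20 in Ahr-het. These did not overlap, and Ahr-het 2 was the lowest array. The log2 fold change was 0.53 (SE 0.16, adjusted p = 0.161 from limma, 0.0243 with the block). With the block Mrpl15, Mrpl20 and Mrps25 were higher and 0 genes of the mitoribosome were lower, against 7.58% of all genes (3.68% higher and 3.90% lower). Mrpl21 (gene ID 353242, chromosome 19), which has a bacterial counterpart, had levels of 10.24, 10.06 and 10.30 in Ahr-ko, against 10.08, 9.61 and 9.62 in Ahr-het. Ahr-het 1 lay within the range of the Ahr-ko arrays, and the log2 fold change of 0.43 (SE 0.15) had an adjusted p of 0.251 (0.0699 with the block).

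Among the other genes with a bacterial counterpart, Mrpl16, which lies near the tRNA sites of the large subunit, had levels of 9.23, 9.09 and 9.33 in Ahr-ko, against 8.92, 8.94 and 8.81 in Ahr-het. Mrps7, a protein of the small subunit head, had 9.59, 9.50 and 9.74 in Ahr-ko, against 9.31, 9.38 and 9.29 in Ahr-het. Neither gene overlapped between the groups, with log2 fold changes of 0.33 for Mrpl16 (SE 0.11, adjusted p = 0.218) and 0.28 for Mrps7 (SE 0.11, adjusted p = 0.301). Mrps21 had levels of 9.43, 8.94 and 9.24 in Ahr-ko, against 9.20, 8.74 and 8.54 in Ahr-het. These overlapped, and on the arrays of each number the Ahr-ko value was the higher one (log2 fold change 0.38, adjusted p = 0.478). The stalk protein Mrpl12, which recruits elongation factors and in human cells also binds the mitochondrial RNA polymerase, had levels of 8.85, 8.33 and 8.38 in Ahr-ko, against 8.35, 8.04 and 8.35 in Ahr-het. Ahr-ko 1 stood above the other arrays, and the log2 fold change was 0.27 (SE 0.16, adjusted p = 0.564).

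**Figure D2:**
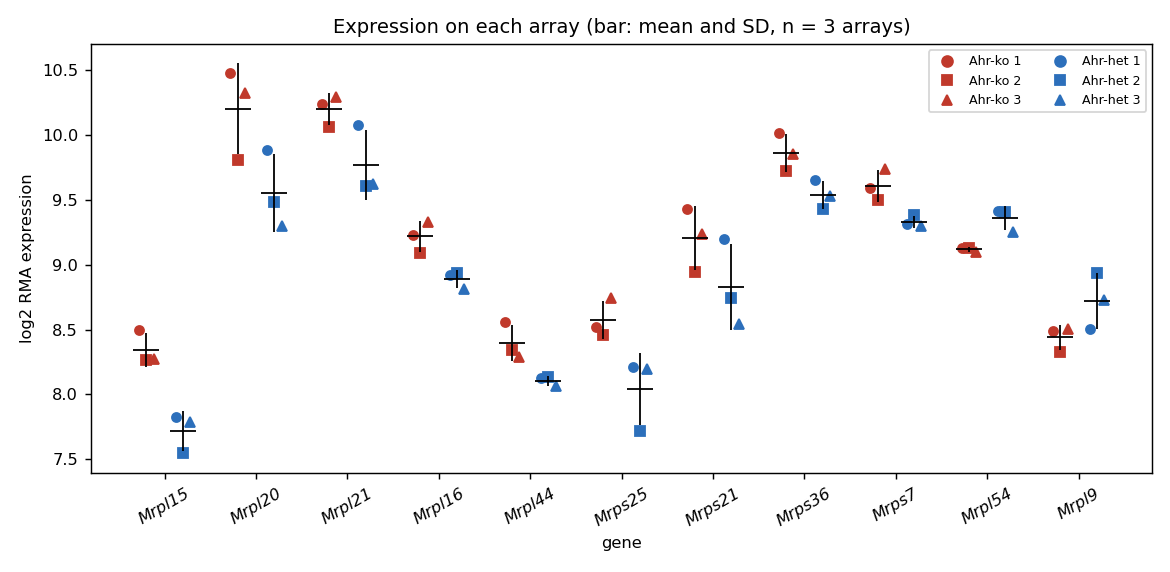
Log2 expression (y axis) of 11 mitochondrial ribosomal protein genes (x axis) on each array, Ahr-ko left of Ahr-het, with the shape giving the replicate number and the bar the mean and SD of 3 arrays. Mrpl15, Mrpl16, Mrpl44, Mrps25, Mrps36 and Mrps7 are higher on every Ahr-ko array, and Mrpl54 and Mrpl9 are lower on every Ahr-ko array.

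Genes classed as without a bacterial counterpart had a lower median fold change. Among them Mrpl44, which has the fold of RNase III, had levels of 8.56, 8.34 and 8.29 in Ahr-ko, against 8.12, 8.13 and 8.06 in Ahr-het. The groups did not overlap, and the log2 fold change was 0.29 (SE 0.11, adjusted p = 0.296). Mrpl58, known as ICT1, which frees stalled mitoribosomes by cutting the peptidyl-tRNA, had a log2 fold change of 0.15 (adjusted p = 0.675). The classes were set by the number in the symbol alone. Mrpl1 to Mrpl36, Mrps2 to Mrps21, Mrps24 and Mrps28 were counted as having a bacterial counterpart. No sequences were compared, so single genes can be in the wrong class. Of 45 genes classed with a bacterial counterpart 37 had a log2 fold change above 0 and the median was 0.18. Of 31 classed without one 19 were above 0 and the median was 0.10. The order held within the large subunit (0.20 for 28 genes and 0.11 for 20) and the small subunit (0.18 for 17 genes and 0.08 for 11). The difference between these classes was not tested.

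A few genes lay on the lower side. Mrpl54, a large subunit protein without a bacterial counterpart, had levels of 9.13, 9.13 and 9.10 in Ahr-ko, against 9.41, 9.41 and 9.25 in Ahr-het. The Ahr-ko arrays were close together and all below the Ahr-het arrays, with a log2 fold change of -0.24 (SE 0.10, adjusted p = 0.349). Mrpl9, which has a bacterial counterpart, had levels of 8.49, 8.33 and 8.50 in Ahr-ko, against 8.51, 8.93 and 8.72 in Ahr-het. The groups were parted only narrowly, by Ahr-het 1 and Ahr-ko 3 (log2 fold change -0.28, SE 0.13, adjusted p = 0.425). The next lowest values were those of Mrps35 (-0.19), Mrpl38 (-0.14) and, within the small subunit, Mrps10 (-0.07) and Mrps34 (-0.04), with adjusted p-values of 0.753 to 0.938, and the groups of all 4 genes overlapped. In all, the groups did not overlap for 10 genes higher in Ahr-ko (13.2%, against 9.76% of all genes) and 2 lower (2.63%, against 8.91%). Besides those above, the higher ones were Mrps36, Mrps18b, Mrps15, Mrpl28 and Mrpl37 (Mrps15 and Mrpl28 chosen after their values were seen).

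Some members have a place or role other than their symbol says. In structures of the mammalian mitoribosome the proteins of Mrps18a and Mrps30 lie in the large subunit, and the protein of Mrps36 is known as a part of the 2-oxoglutarate dehydrogenase complex. Mrps36 had levels of 10.01, 9.72 and 9.85 in Ahr-ko, against 9.65, 9.43 and 9.53 in Ahr-het. It did not overlap between the groups, and its log2 fold change was 0.33 (SE 0.12, adjusted p = 0.271). Mrps30 had a log2 fold change of 0.18 (adjusted p = 0.651). Among the paralogs of the S18 family, Mrps18b had levels of 9.01, 9.52 and 8.99 in Ahr-ko, against 8.97, 8.81 and 8.80 in Ahr-het, so that its log2 fold change of 0.32 (SE 0.16, adjusted p = 0.465) rested mainly on Ahr-ko 2. Mrps18a and Mrps18c had their highest values on the replicate 1 arrays, at 9.45 in Ahr-ko and 9.35 in Ahr-het for Mrps18a and at 10.68 in Ahr-ko and 10.66 in Ahr-het for Mrps18c. Their log2 fold changes were 0.05 (SE 0.27) and 0.22 (SE 0.32), and both changed sign when Ahr-ko 1 was left out (-0.22 and -0.02). Mrps18a also did so without Ahr-het 2 (-0.02) or Ahr-het 3 (-0.13).

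Between the subunits the values were close. The median log2 fold change was 0.15 for the large subunit, with 36 of 48 genes above 0, and 0.14 for the small subunit, with 20 of 28 above 0. For each array the deviation of each gene from its mean over the 6 arrays was taken, and the median of the small subunit was subtracted from that of the large subunit. This gave 0.04, -0.0033 and 0.05 on the Ahr-ko arrays, against 0.05, -0.02 and -0.08 on the Ahr-het arrays. The ranges overlapped, with a mean of 0.03 ± 0.03 in Ahr-ko and -0.02 ± 0.07 in Ahr-het (SD, n = 3 arrays each). The medians of the levels themselves gave another sign, with large minus small at -0.07, -0.05 and 0.18 in Ahr-ko, against 0.09, 0.34 and 0.25 in Ahr-het. The means were 0.02 ± 0.14 in Ahr-ko and 0.23 ± 0.12 in Ahr-het (SD, n = 3 arrays each), and the ranges overlapped. That measure sets levels of different probes against each other, so the direction between the subunits depends on the measure. With Mrps18a and Mrps30 counted with the large subunit and Mrps36 left out, the difference in the deviations between the genotypes was 0.06 instead of 0.04.

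Arrays of one genotype differed as much as the genotypes did. The median deviation over the 76 genes was 0.22, -0.07 and 0.07 on the Ahr-ko arrays, against 0.11, -0.13 and -0.19 on the Ahr-het arrays, while over all genes it stayed between -0.014 and 0.014. Ahr-ko 1 was the highest array for 40 of 76 genes and Ahr-het 1 for 20, and Ahr-het 3 was the lowest for 37. Both subunits followed this order, with 0.24, -0.07 and 0.09 in Ahr-ko and 0.12, -0.14 and -0.23 in Ahr-het for the large subunit, and 0.20, -0.07 and 0.04 in Ahr-ko and 0.07, -0.12 and -0.15 in Ahr-het for the small one. Averaged over the genotypes, the replicate 1 arrays were the highest for 62 of 76 genes. Between arrays of equal number, the median difference of Ahr-ko minus Ahr-het was 0.10 for number 1 (53 of 76 genes above 0), 0.07 for number 2 (46) and 0.25 for number 3 (62). In all 3 pairs 34 genes were higher in Ahr-ko (44.7%, against 21.8% of all genes) and 5 were lower (6.58%, against 19.9%). The pairs of numbers 2 and 3 were assumed from the numbers, as described below.

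**Figure D3:**
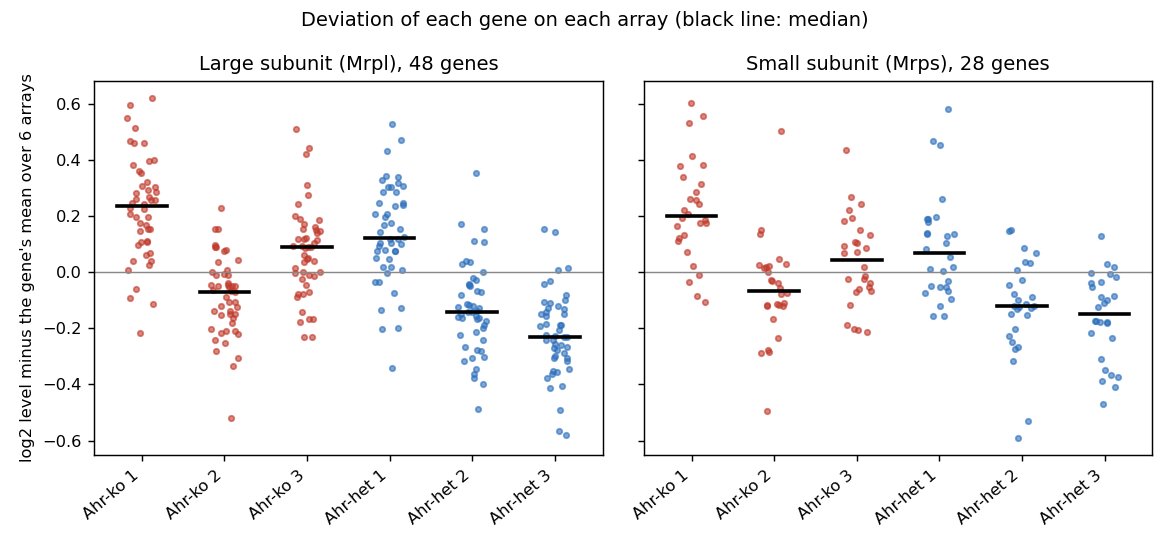
Deviation of each gene from its mean over the 6 arrays (y axis, log2) on each array (x axis), with a point for each gene and a black line for the median, for the large (left) and small (right) subunit. Ahr-ko 1 and Ahr-het 1 have the highest medians of their groups in both subunits, and the medians of the groups overlap.

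The median log2 fold change of the 76 genes moved with single arrays. It was 0.07 without Ahr-ko 1 as given above, 0.07 without Ahr-het 3 and 0.24 without Ahr-het 1, and 0.14 without both replicate 1 arrays. The level of 17 keratinocyte markers varied over the arrays as well: their mean was 8.96, 9.21 and 9.08 on the Ahr-ko arrays, against 9.04, 9.28 and 9.23 on the Ahr-het arrays, and was lowest in each group on the replicate 1 array. On every array 14 to 16 of the 17 were above the limit. Of the 17, 1 was called lower in Ahr-ko and 0 higher (5.88%, against 3.14% of all genes). Their log2 fold changes ran from -1.22 to 0.51. Part of their mean can thus follow genotype, and what the covariate takes out was not tested. With this mean as a covariate, which gave the median of 0.03 above, Mrpl15 was still called (log2 fold change 0.53, adjusted p = 0.0236 from limma). Markers of NK cells and ILC differed between the groups, with a mean over 4 genes of 8.06 to 8.95 in Ahr-ko and 7.17 to 7.35 in Ahr-het, and 2 to 3 of 4 above the limit in Ahr-ko and 1 of 4 in Ahr-het. Eomes (log2 fold change 3.46) and Ncr1 (1.59) were higher, while Klra7 (0.63) and Klrb1c (-0.83) did not pass. Called were thus 2 of the 4 (50%, against 3.14% of all genes). The mean over 6 αβ T cell markers was 9.07 to 9.13 in Ahr-ko and 8.59 to 8.66 in Ahr-het, with 5 to 6 above the limit in both groups. These markers went both ways, since Cd6 (log2 fold change 1.91), Cd8a (1.67) and Cd8b1 (0.68) were higher, Themis (-0.61) was lower, and Cd5 (-0.35) and Cd4 (-0.35) did not pass. Of the 6, 3 were called higher and 1 lower (66.7%, against 3.14% of all genes). The mean over 8 Langerhans cell markers was 8.55 to 8.97 in Ahr-ko and 8.01 to 8.21 in Ahr-het, with 6 to 7 above the limit in Ahr-ko and 5 to 6 in Ahr-het. Of these only Itgax was called (higher, log2 fold change 4.71), or 12.5% against 3.14% of all genes. The median over the 8 was 0.11. Mfge8 (-0.35) and Epcam (-0.28) lay lower in Ahr-ko without overlap (25%, against 8.91% of all genes). Without overlap 1 of the 8 lay higher (12.5%, against 9.76%). Of 5 melanocyte markers 1 was above the limit on every array, and of 5 fibroblast markers 1 to 2. The 10 DETC and T cell markers had a median log2 fold change of -0.10, with 3 above 0 and 7 below. Of them 1 was called higher and 0 lower (10%, against 3.14% of all genes). Without overlap 4 lay lower (40%, against 8.91% of all genes) and 2 higher (20%, against 9.76%). The part of the lymphocyte and Langerhans cell markers in the result was not tested.

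Most of these genes were above background in both groups. Of 76 genes 72 passed the limit on all 3 Ahr-ko arrays and 71 on all 3 Ahr-het arrays. Mrps5 and Mrps22 were below it on all 6 arrays, and Mrpl43 was above it only on Ahr-het 1 (these 3 genes chosen after their values were seen). Over the 73 genes above the limit on all arrays of at least 1 group, the median log2 fold change was 0.16, against 0.0066 over all 11734 such genes. This filter depends on the level in a group: Mrpl15 and Mrpl35 passed only through Ahr-ko and Mrpl1 only through Ahr-het. On all 6 arrays 70 of the 76 genes were above the limit. The probe sets with the highest signal in each subunit did not pass the test. For Mrpl24 and Mrpl37 of the large subunit the log2 fold changes were -0.09 and 0.10, and for Mrps14 and Mrps12 of the small subunit 0.25 and 0.10, with adjusted p-values of 0.673 to 0.856.

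Among the genes that build the mitoribosome 1 was called. Rcc1l (gene ID 94254, chromosome 5), a protein of the RCC1 family that takes part in mitoribosome assembly in human cells, had levels of 10.26, 10.99 and 10.74 in Ahr-ko, against 11.65, 12.26 and 12.05 in Ahr-het. Every Ahr-ko array was below every Ahr-het array. It was lower in Ahr-ko, and on the log2 scale the difference was -1.33 (SE 0.22, adjusted p = 0.0139 from limma, 7.06e-05 with the block). The call ended without Ahr-ko 3 (adjusted p = 0.0667), Ahr-het 2 (0.0717) or Ahr-het 3 (0.0727). Of 29 genes of mitoribosome assembly and rRNA modification, 0 were higher, 1 was lower and 28 did not pass (3.45% called, against 3.14% of all genes), with a median log2 fold change of 0.04 (2 lower and 0 higher with the block).

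Proteins of the mitoribosome with other symbols were not called. Dap3, which encodes a GTP-binding protein of the small subunit also studied in cell death, had levels of 9.43, 8.78 and 8.88 in Ahr-ko, against 9.45, 9.10 and 9.35 in Ahr-het. The groups overlapped (log2 fold change -0.27, SE 0.18, adjusted p = 0.629). Chchd1, another small subunit protein, had levels of 8.01, 8.03 and 8.01 in Ahr-ko, against 7.93, 7.49 and 7.50 in Ahr-het. Here the groups did not overlap, and 1 of 3 Ahr-het arrays was above the limit (log2 fold change 0.38, SE 0.14, adjusted p = 0.268). With Ptcd3, Aurkaip1 and Gadd45gip1, 0 of 5 such genes were called by limma, against 3.14% of all genes. At an unadjusted p under 0.05 there was 1 (20%, against 13.2% of all genes).

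Among 16 mitochondrial translation factors 0 were called by limma, against 3.14% of all genes, and the median log2 fold change was -0.0060. At an unadjusted p under 0.05 there was 1 (6.25%, against 13.2% of all genes). The lowest p-values were those of Taco1, a translational activator of the mitochondrial COX1 mRNA, which was below the limit on all arrays, and of Mtfmt, which formylates the initiator tRNA (log2 fold change -0.26, adjusted p = 0.506). Among 20 genes of mitochondrial tRNA synthetases and amidotransferase 0 were called by limma, with a median of -0.04 and 5 of 20 above 0. At an unadjusted p under 0.05 there were 0, against 13.2% of all genes. The lowest p-values there were those of Yars2 (log2 fold change 0.29, adjusted p = 0.415) and of Gatb, below the limit on all arrays. Among 19 genes of mitochondrial DNA maintenance and transcription 1 was higher and 0 were lower (5.26%, against 3.14% of all genes), with a median of 0.0025. With the block 2 were higher and 1 lower, where 7.58% of all genes were called. The gene called without the block was Myc, a transcription factor that promotes ribosome formation and cell growth. It lay at 11.54, 11.71 and 11.67 in Ahr-ko, against 8.38, 9.93 and 9.79 in Ahr-het. The groups did not overlap. The difference was 2.27 on the log2 scale (SE 0.36, adjusted p = 0.0118 from limma), and the call ended without Ahr-ko 2 (adjusted p = 0.0520) or Ahr-ko 3 (0.0709).

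**Figure D4:**
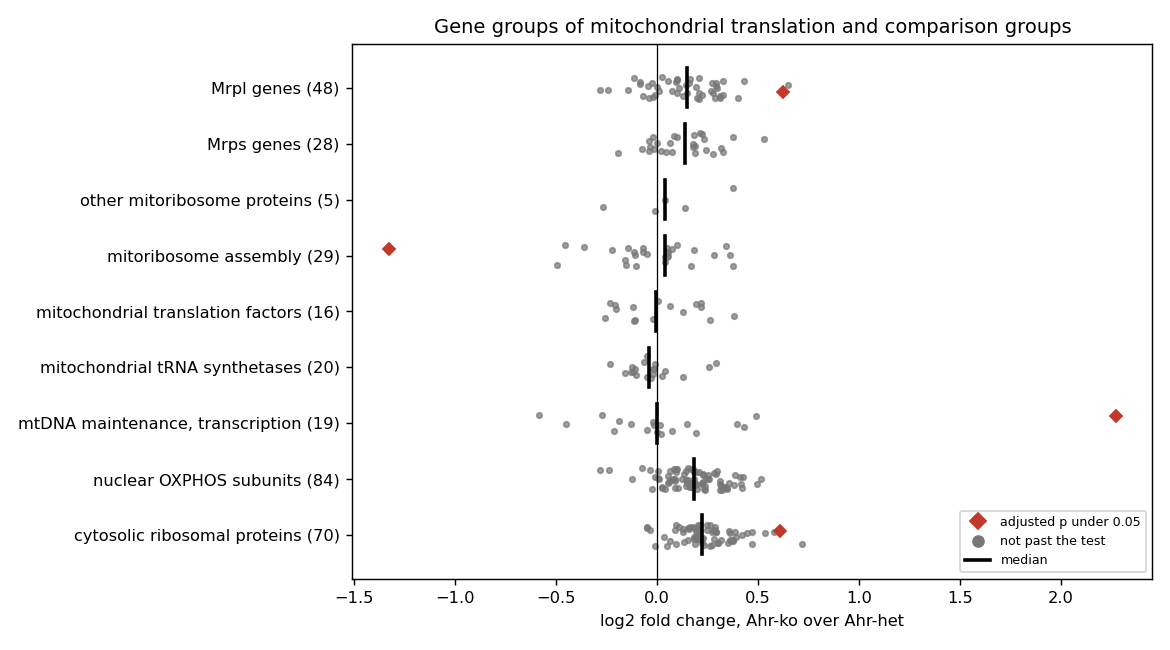
Log2 ratio of Ahr-ko to Ahr-het (x axis) for each gene of 9 groups (y axis, number of genes in brackets), with a black line for the median and red diamonds for genes past the test. The medians are 0.15 for Mrpl and 0.14 for Mrps genes, 0.22 for cytosolic ribosomal proteins and -0.04 for mitochondrial tRNA synthetases, and Rcc1l at -1.33 is the diamond in the assembly group.

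The cytosolic ribosome and the nuclear subunits of oxidative phosphorylation (OXPHOS) were set beside the mitoribosome as similar gene groups. For 70 cytosolic ribosomal protein genes the median log2 fold change was 0.22 and 66 were above 0. Of them 1 was called higher, Rps15a (0.61, adjusted p = 0.0389 from limma), and 0 lower, or 1.43% against 3.14% of all genes. With the block 8 were higher and 0 lower, against 3.68% higher and 3.90% lower of all genes. Of these genes 51 did not overlap between the groups and were higher in Ahr-ko (72.9%, against 13.2% of the mitoribosome genes and 9.76% of all genes). For 84 OXPHOS genes the median was 0.18 and 77 were above 0. Of them 0 were called by limma, against 3.14% of all genes, and 2 were higher with the block, against 3.68%. At an unadjusted p under 0.05 there were 11, or 13.1% against 13.2% of all genes. The lowest p-values were those of Atp5e, a subunit of ATP synthase (0.52, adjusted p = 0.0513), and Cox5a, a subunit of cytochrome c oxidase (0.50, adjusted p = 0.112). The call of Rps15a ended in 5 of 6 fits leaving out 1 array (adjusted p 0.0171 to 0.175, with only the fit without Ahr-ko 1 keeping it), and after quantile normalization once more (0.0512) or with all probe sets (0.0754).

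By array, the OXPHOS genes had median deviations of 0.22, -0.04 and 0.11 in Ahr-ko and 0.10, -0.17 and -0.20 in Ahr-het. As in the mitoribosome, Ahr-ko 1 was the highest array and Ahr-het 3 the lowest, but Ahr-ko 3 lay above Ahr-het 1 and in the mitoribosome below it. The cytosolic ribosomal proteins were highest on Ahr-ko 3 and lowest on Ahr-het 1, at 0.05, 0.12 and 0.19 in Ahr-ko and -0.15, -0.06 and -0.13 in Ahr-het. Their medians did not overlap between the groups, while those of the mitoribosome and of OXPHOS did. These orders are a description over 6 arrays, and the difference between the gene groups was not tested.

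**Figure D5:**
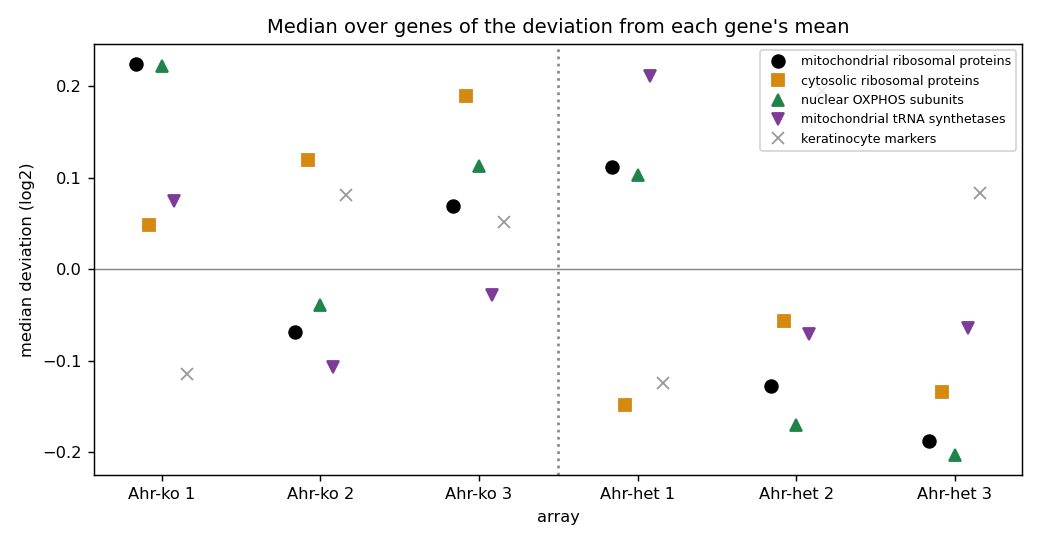
Median over the genes of a group of the deviation from each gene's mean over the arrays (y axis, log2) on each array (x axis), Ahr-ko left of Ahr-het. Mitochondrial ribosomal proteins (0.22, -0.07 and 0.07 in Ahr-ko and 0.11, -0.13 and -0.19 in Ahr-het) lie close to OXPHOS subunits on each array, and keratinocyte markers are lowest on the replicate 1 arrays.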

How the data were processed

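DETC RNA of Ahr-ko and Ahr-het mice was hybridised to 6 Clariom S Mouse arrays, 3 per genotype, with 10 ng of RNA per labelling reaction. Log2 expression values were deposited by the authors, who had run RMA on the 6 arrays together (background correction, quantile normalization, probe summary). Neither the RMA version nor the genome build of the probe sets is given in the sources used here. The submitters' processing notes name limma 3.38.3. The authors' deposited annotation table was used for gene IDs and symbols. Its log2 fold changes, mean levels, p-values and scores are the authors' own comparison and were not used.

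Of 29129 probe sets 20435 carry a gene ID. The brightest over all arrays stood for a gene (86 genes had several, 0 of them mitoribosome genes), which left 20300 genes. All 76 symbols matched the RefSeq table of GRCm38.p6 by gene ID. Ahr-ko was set against Ahr-het in limma 3.58.1 (lmFit and eBayes, R 4.3.3) and Benjamini-Hochberg adjustment over all genes, at a threshold of 0.05. The fit was run on simulated arrays with known changes and independent noise for each gene and array. Variation shared by the genes of an array was not simulated, so this does not check the calls made here. The p-values measure how far pools of mice differ. The members, lists, tests and alternatives were chosen with earlier results of these data known. Named are genes past the threshold, the 3 highest and 3 lowest log2 fold changes per subunit, genes at an unadjusted p under 0.05 without overlap, the 2 with the highest signal per subunit, those with a known special role, and from each list up to 5 called members or, where none passed, the 2 with the lowest p.

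The genotypes share replicate numbers. Deviations from the group means correlated at 0.572, 0.369 and 0.207 over all genes for equal numbers 1, 2 and 3 (0.526, 0.380 and 0.119 over the 76 genes). All exceeded 0.1, so equal numbers were treated as pairs in the replicate block and in the differences between arrays of equal number. The main limma fit had no block, so its p-values do not use these pairs. Numbers 2 and 3 also correlated crosswise, at 0.336 for Ahr-ko 2 with Ahr-het 3 and 0.236 for Ahr-ko 3 with Ahr-het 2. Over the 76 genes both were 0.220. These crosswise values exceeded 0.1 as well. Ahr-ko 3 was closer to Ahr-het 2 than to Ahr-het 3. Over all genes Ahr-ko 2 was only slightly closer to Ahr-het 2 (0.369) than to Ahr-het 3 (0.336). The correlations thus single out the number 1 pair, and the pairing of numbers 2 and 3 was assumed from the numbers. Results with the block and counts over pairs rest on this assumption. The meaning of the numbers is unknown. With 3 arrays per genotype the precision is limited by their number.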

Additional observations from a re-analysis of the deposited data

How the results depend on the processing

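The count of 638 changed genes was 1538 with the replicate block, 1716 with array weights, 1495 with the keratinocyte covariate, 1147 without both replicate 1 arrays and 342 to 644 leaving out 1 array (342 without Ahr-ko 3, 355 without Ahr-het 2, 371 without Ahr-het 3). The 1 of 76 mitoribosome genes higher in Ahr-ko became 3 with the replicate block, where 7.58% of all genes were called in either direction. It became 6 with array weights (Mrpl15, Mrpl16, Mrpl20, Mrpl21, Mrpl23 and Mrps25), where 8.45% of all genes were called. Without both replicate 1 arrays there were 2 (Mrpl15 and Mrpl21, against 5.65% of all genes). With all probe sets tested together there were 0 (against 2.13%), and leaving out 1 array 0 to 1 (against 1.68% to 3.17%). The cause was not tested. In every fit 0 were lower. Among single named genes, 20 values crossed to significance and 18 lost it over all alternatives. The replicate block also called Atp5e and Cox5a and changed no other call of a named gene. The median log2 fold change of the 76 genes was 0.07 to 0.24 leaving out 1 array, and large minus small -0.0039 to 0.064. Both moved by less than 1 SD between arrays of a group (0.153 and 0.051). These SDs exceed the values with all arrays (0.147 and 0.0433), so a fall to 0 would also be within 1 SD. This yardstick thus does not show that the values were stable, and large minus small changed sign. Signs changed for Mrps34 (0.0055) and Mrpl24 (0.0044) with array weights, and for Mrps18a (-0.28) and Mrps18c (-0.19) with the covariate. Leaving out 1 array gave ranges across 0 for Mrps34 (-0.099 to 0.028), Mrpl24 (-0.13 to 0.0015), Mrps10 (-0.28 to 0.046), Mrps18a (-0.22 to 0.28), Mrps18c (-0.024 to 0.57) and Cyp1b1 (-0.068 to 0.16). No symbol of a pseudogene was among the 76, so leaving such symbols out was not run. The signal over background limits the values of Mrps5, Mrps22 and Mrpl43.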
